A study of Mus musculus with 28 samples.

Results

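Foxo1, Foxo3 and Foxo4, 3 transcription factors of the FoxO family, and Depp1, a gene that FoxO factors are known to switch on, were followed in mouse skeletal muscle after an injection into the fluid-filled ventricles of the brain that carried vehicle or the inflammatory cytokine interleukin 1b (IL-1b). The 4 genes were found as the probe sets that the platform annotation gives 1 symbol, equal to the gene's name. Each gene had 1 probe set, so 4 of the 17831 probe sets, and 4 of the 15224 genes named by such probe sets, are described here. The probe sets are 6897441 for Foxo1 (gene ID 56458, chromosome 3), 6773545 for Foxo3 (gene ID 56484, chromosome 10), 7012860 for Foxo4 (gene ID 54601, chromosome X) and 6949310 for Depp1 (gene ID 213393, chromosome 6).

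Muscle was taken 2, 4 or 8 h after injection, and total RNA was measured on 28 whole-transcript Affymetrix arrays. Each of the 6 groups of arm and time had 5 arrays, apart from the 8 h IL-1b group, which had 3. All mice of both arms had an injection into the brain, and the labels give no uninjected group, strain, age, sex, dose or named muscle. The labels also do not say whether arrays are separate mice, so the p-values measure only the spread between these samples, which may be technical.

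The deposited values are log2 values centred on each probe set's median over the 28 arrays. A value of 0 therefore marks the middle array for that gene and not a low level, so no gene's level can be set against another gene's, and the muscle fibre markers cannot be checked as levels. In whole muscle, fewer cells of a type and less RNA per cell cannot be told apart. Differences were tested with limma in 1 model over the 6 groups, each p was adjusted by Benjamini-Hochberg across the 17831 probe sets, and a difference passed at an adjusted p under 0.01, the 1% false discovery rate that the study's design text names. The SD of the centred values over probe sets was widest on 3 arrays (vehicle 2 h replicate 7, vehicle 8 h replicate 1 and IL-1b 8 h replicate 22). The 8 h differences of Foxo1, Foxo3 and Depp1 and the 2 h difference of Depp1 are also given below without them. For other single-gene results, only calls lost or gained without these arrays are mentioned.

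FoxO factors are forkhead transcription factors that insulin and IGF-1 hold out of the nucleus through the kinase Akt. When that signal falls, as in fasting, or when glucocorticoids rise, FoxO factors enter the nucleus, and in muscle they switch on ubiquitin ligases and autophagy genes that break down protein. Depp1 encodes a small regulator of autophagy, first described in human uterine cells treated with progesterone, and is a direct target of FOXO3 in human cells. Arrays measure the RNA of these genes, and not the phosphorylation or location of the proteins.

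RefSeq promoters (mouse build GRCm38.p6) were available for 3 of the 4 genes, Foxo1, Foxo3 and Depp1, and the 250 bases before each gene's start are shown because these 3 genes passed the test together after IL-1b, as described below, and because Depp1 is a known FoxO target. Foxo1 lies on the plus strand and its stretch is chr3:52268087-52268336, Foxo3 lies on the minus strand with chr10:42276696-42276945, and Depp1 lies on the plus strand with chr6:116650434-116650683. Capitals mark a match to a FoxO site.
Foxo1: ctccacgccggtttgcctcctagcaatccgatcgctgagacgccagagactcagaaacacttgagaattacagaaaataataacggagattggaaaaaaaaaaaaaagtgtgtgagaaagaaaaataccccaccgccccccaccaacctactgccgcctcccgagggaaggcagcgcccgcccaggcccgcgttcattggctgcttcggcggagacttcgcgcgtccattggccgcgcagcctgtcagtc
Foxo3: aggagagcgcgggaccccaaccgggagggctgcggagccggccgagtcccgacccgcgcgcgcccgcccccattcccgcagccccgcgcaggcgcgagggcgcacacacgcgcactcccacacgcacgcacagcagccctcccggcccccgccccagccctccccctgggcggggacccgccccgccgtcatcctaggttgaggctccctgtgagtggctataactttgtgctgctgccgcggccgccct
Depp1: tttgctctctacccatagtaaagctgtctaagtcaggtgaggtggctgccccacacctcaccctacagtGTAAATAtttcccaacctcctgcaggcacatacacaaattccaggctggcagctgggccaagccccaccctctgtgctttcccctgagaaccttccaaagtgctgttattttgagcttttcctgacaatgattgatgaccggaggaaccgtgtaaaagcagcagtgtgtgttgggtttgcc

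These stretches were searched on both strands for the FoxO site GTAAACA, for the same site with 1 base left free, GTAAANA, which contains the first, for the insulin response sequence CAAAACA and for the glucocorticoid receptor motif AGAACA. The only match was the GTAAATA of Depp1, a form of GTAAANA, from 181 to 175 bases before the start at chr6:116650503-116650509 on the plus strand. GTAAANA is present in 10.9% of 32851 mouse promoter stretches of the same length, GTAAACA in 3.17%, CAAAACA in 5.56% and AGAACA in 16.1%. The Foxo3 stretch is 76.4% G and C, against 56.0% for Foxo1, 50.8% for Depp1 and a median of 52.4% over all promoters. A match is a run of letters and not evidence of binding, and these arrays do not measure binding.

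Foxo1, the FoxO factor best known for insulin control of gene expression in liver and muscle, was higher after IL-1b at 4 and 8 h, and at 2 h its difference was smaller and did not pass the test. At 2 h its centred log2 values were 0.0385, -0.17, -0.24, -0.15 and -0.32 in the 5 vehicle arrays and -0.12, 0.16, 0.079, 0.16 and 0.044 in the 5 IL-1b arrays. At 4 h the vehicle arrays read 0.096, -0.19, -0.0385, -0.24 and -0.36, and the IL-1b arrays read 0.80, 0.91, 0.63, 1.13 and 0.93. At 8 h the vehicle arrays read -0.42, -0.49, -0.34, -0.27 and -0.50, and the IL-1b arrays read 0.95, 0.83 and 0.69. The groups overlapped at 2 h, where 4 of the 5 IL-1b arrays lay above every vehicle array, and were apart at 4 and 8 h, where the lowest IL-1b array stood above every vehicle array of its time.

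The log2 difference of Foxo1 at 2 h was 0.23 ± 0.090 (SE, 95% interval 0.050 to 0.42, limma unadjusted p = 0.0149, adjusted p = 0.368), which did not pass the test. Foxo1 rose at 4 h by 1.03 ± 0.090 (SE, limma adjusted p = 6.72e-08, n = 5 and 5) and ranked 3 of all probe sets by p. At 8 h the difference was 1.23 ± 0.10 (SE, limma adjusted p = 2.16e-08, n = 3 and 5), which is 2.34-fold. The 4 and 8 h differences passed under each of the 7 alternative settings and with any 1 array left out.

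Foxo3, which in mouse muscle drives the atrophy ubiquitin ligase Fbxo32 and autophagy genes, was also higher after IL-1b at 4 and 8 h and did not differ past the test at 2 h. Its 2 h values were 0.0008, -0.090, 0.12, -0.11 and -0.11 in vehicle and -0.032, -0.22, -0.0008, 0.034 and -0.024 after IL-1b. At 4 h vehicle read -0.065, -0.20, 0.031, -0.089 and -0.28, and IL-1b read 0.30, 0.30, 0.33, 0.49 and 0.37. At 8 h vehicle read 0.083, -0.51, -0.054, 0.011 and -0.19, and IL-1b read 0.60, 0.89 and 0.49. The 2 h groups overlapped, while at 4 and 8 h no IL-1b array overlapped a vehicle array.

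Foxo3 differed by -0.0085 ± 0.090 at 2 h (SE, 95% interval -0.19 to 0.18, limma adjusted p = 0.973). It rose by 0.48 ± 0.090 at 4 h (SE, limma adjusted p = 0.00292), which is 1.39-fold, and by 0.79 ± 0.10 at 8 h (SE, limma adjusted p = 1.78e-05), which is 1.73-fold. The 4 h call was lost without vehicle replicate 3 or 17 or without IL-1b replicate 18 (adjusted p up to 0.0164), with differences of 0.44 to 0.51 over the 10 arrays left out in turn. The 8 h call was lost where only the 8 h groups entered the fit (adjusted p = 0.0453).

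Foxo4, the X-linked member of the family, showed no change that passed the test. Its vehicle values ran from -0.25 to 0.090 at 2 h, from -0.17 to 0.25 at 4 h and from -0.25 to 0.075 at 8 h. After IL-1b they ran from -0.061 to 0.017 at 2 h and from -0.0025 to 0.14 at 4 h, and the 8 h arrays read 0.015, 0.21 and 0.13. The groups overlapped at every time. The differences were 0.050 ± 0.074 (SE, 95% interval -0.10 to 0.20) at 2 h, 0.092 ± 0.074 (-0.059 to 0.24) at 4 h and 0.17 ± 0.085 (-0.0048 to 0.34) at 8 h, with limma adjusted p = 0.799, 0.861 and 0.412. These intervals bound a change that the arrays could have missed in the signal of the Foxo4 probe set. They do not show that Foxo4 was equal in both arms.

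Depp1 had the largest differences of the 4 genes at each of the 3 times. At 2 h it read -1.06, -0.23, -0.61, -0.36 and -0.46 in vehicle and 0.45, 0.40, 0.89, 0.37 and 0.39 after IL-1b. At 4 h vehicle read -0.76, -0.49, 0.23, -0.68 and -1.06, and IL-1b read 0.71, 1.20, 0.59, 0.98 and 0.71. At 8 h vehicle read -1.07, -1.63, -0.40, -0.42 and -0.88, and IL-1b read 1.76, 2.08 and 1.23. No IL-1b array of Depp1 overlapped a vehicle array of the same time, 2 h included, although vehicle replicate 5 at 4 h stood far above the other vehicle arrays.

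The 2 h difference of Depp1, 1.04 ± 0.22 (SE, 95% interval 0.58 to 1.51, 2.06-fold), did not pass the test (limma adjusted p = 0.0385) and ranked 39 of all probe sets by p. It passed after a further quantile normalization (1.09, adjusted p = 0.00973) and with array weights (1.00, adjusted p = 0.00595), and without the 3 arrays of widest spread it was 1.03 (adjusted p = 0.0774). Depp1 rose at 4 h by 1.39 ± 0.22 (SE, limma adjusted p = 0.000524), which is 2.62-fold, and at 8 h by 2.57 ± 0.26 (SE, limma adjusted p = 3.2e-07), which is 5.95-fold. The 4 and 8 h calls held under each of the 7 alternative settings and with any 1 array left out.

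Against the background of the whole array, 0 of the 4 genes passed in limma at 2 h, where 0.0729% of all probe sets passed. An unadjusted p under 0.05 was reached at 2 h by 2 of the 4, Foxo1 and Depp1, and by 1885 of all 17831 probe sets. At 4 h 3 of the 4 genes passed, all of them higher, where 0.578% of all probe sets passed as higher and 0.847% in either direction. At 8 h the same 3 genes passed, all higher, where 1.02% passed as higher and 2.09% in either direction. By the separation of the arrays alone, Depp1 at 2 h was among the 1.1% of probe sets whose IL-1b arrays all lay above the vehicle arrays, and that share was 1.85% at 4 h and 2.74% at 8 h, where Foxo1, Foxo3 and Depp1 were among them. Without the 3 arrays of widest spread, the 8 h differences were 1.22 for Foxo1, 0.73 for Foxo3 and 2.33 for Depp1 (limma adjusted p = 4.36e-06, 0.000182 and 7.35e-05). That fit leaves vehicle replicate 1 and IL-1b replicate 22 out of the 8 h groups of 5 and 3 arrays, and takes its spread from all groups.

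**Figure D1:**
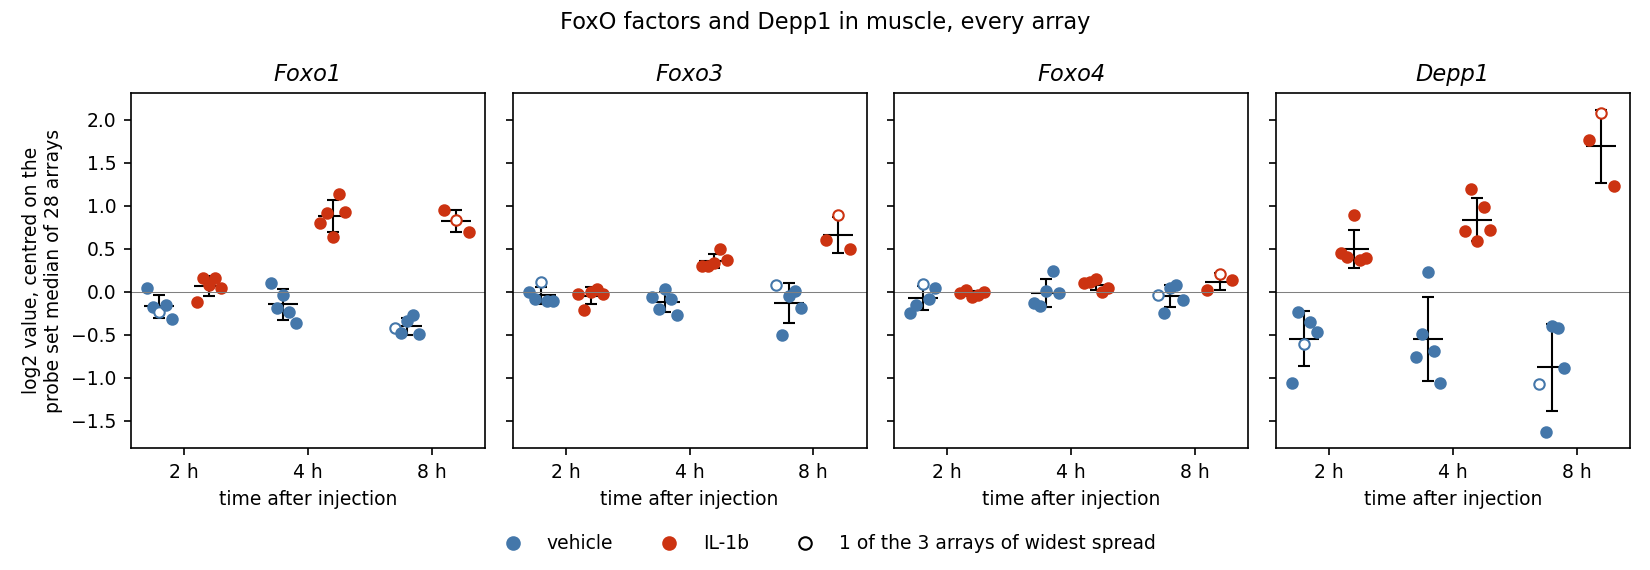
Centred log2 value of Foxo1, Foxo3, Foxo4 and Depp1 in each of the 28 arrays by time after injection, with vehicle in blue and IL-1b in red, group means as short lines with bars of 1 SD, and the 3 arrays of widest spread as open points. Foxo1 and Foxo3 separate by arm at 4 and 8 h, Depp1 separates at 2, 4 and 8 h, and the arms of Foxo4 overlap at each time.

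The vehicle arms were compared over time to see how far each IL-1b difference rests on a moving control. In limma, 0 of the 4 genes passed in vehicle between any of the times, where 0.101% of all probe sets passed from 2 to 4 h, 0.852% from 2 to 8 h and 0.129% from 4 to 8 h. Only Foxo1 had an unadjusted p under 0.05, from 2 to 8 h with a difference of -0.23 ± 0.090 (SE, 95% interval -0.42 to -0.048, limma adjusted p = 0.271), and from 4 to 8 h with -0.26 ± 0.090 (-0.44 to -0.071, adjusted p = 0.34). Of all 17831 probe sets, 1832 had an unadjusted p under 0.05 in vehicle from 2 to 8 h and 1502 from 4 to 8 h. The highest vehicle array of Foxo1 at 8 h (-0.27) lay below 4 of the 5 vehicle arrays at 2 h and 4 of the 5 at 4 h. Depp1 in vehicle changed by -0.0077 ± 0.22 from 2 to 4 h and by -0.34 ± 0.22 from 2 to 8 h (limma adjusted p = 0.991 and 0.739). The differences of Foxo3 and Foxo4 between vehicle times ran from -0.091 to 0.058.

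The IL-1b arm was also followed over time on its own. Foxo1 rose from 2 to 4 h by 0.82 ± 0.090 (SE, limma adjusted p = 2.39e-06), where 1.02% of all probe sets passed, and then differed by -0.059 ± 0.10 from 4 to 8 h (95% interval -0.27 to 0.15, adjusted p = 0.992). Foxo3 differed by 0.41 ± 0.090 from 2 to 4 h (limma adjusted p = 0.0119), which did not pass here but passed under 5 of the 7 alternative settings: only the compared groups (0.0035), quantile normalization (0.00243), centring of arrays (0.00472), array weights (7.7e-05) and without the 3 arrays of widest spread (0.00275). From 4 to 8 h Foxo3 differed by 0.31 ± 0.10 (limma adjusted p = 0.165), where 1.17% of probe sets passed. From 2 to 8 h Foxo3 rose by 0.71 ± 0.10 (SE, limma adjusted p = 4.38e-05) and Foxo1 by 0.76 ± 0.10 (adjusted p = 1.67e-05), where 3.95% of all probe sets passed.

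Depp1 within the IL-1b arm differed by 0.34 ± 0.22 from 2 to 4 h (limma adjusted p = 0.613) and by 0.85 ± 0.26 from 4 to 8 h (95% interval 0.32 to 1.39, adjusted p = 0.0921). From 2 to 8 h it rose by 1.19 ± 0.26 (SE, limma adjusted p = 0.00357). That call was lost without IL-1b 8 h replicate 14 (1.16, adjusted p = 0.0183) or 22 (1.00, 0.0436), after a further quantile normalization (0.80, 0.0395) and without the 3 arrays of widest spread (1.00, 0.0437). Foxo4 passed in none of the 3 steps, with differences of 0.0996 from 2 to 4 h, 0.14 from 2 to 8 h and 0.038 from 4 to 8 h.

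Whether the IL-1b difference itself changed with time was tested as a difference of differences. Foxo1's grew from 2 to 4 h by 0.79 ± 0.13 (SE, limma adjusted p = 0.00682), where 0.0505% of all probe sets passed, and from 2 to 8 h by 0.99 ± 0.14 (adjusted p = 0.000157), where 0.527% passed. Foxo3's grew from 2 to 8 h by 0.80 ± 0.14 (adjusted p = 0.00209), while its change from 2 to 4 h, 0.49 ± 0.13, did not pass (adjusted p = 0.235). Depp1's change was 1.53 ± 0.34 from 2 to 8 h (95% interval 0.82 to 2.23) and 1.18 ± 0.34 from 4 to 8 h, and neither passed (limma adjusted p = 0.0199 and 0.154). From 4 to 8 h none of the 4 genes passed, where 0.174% of all probe sets did. Foxo1's 2 to 4 h call was lost in 14 of the 20 fits without 1 array (adjusted p up to 0.0195), and Foxo3's 2 to 8 h call was lost without IL-1b 8 h replicate 22 (0.69, adjusted p = 0.0141).

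**Figure D2:**
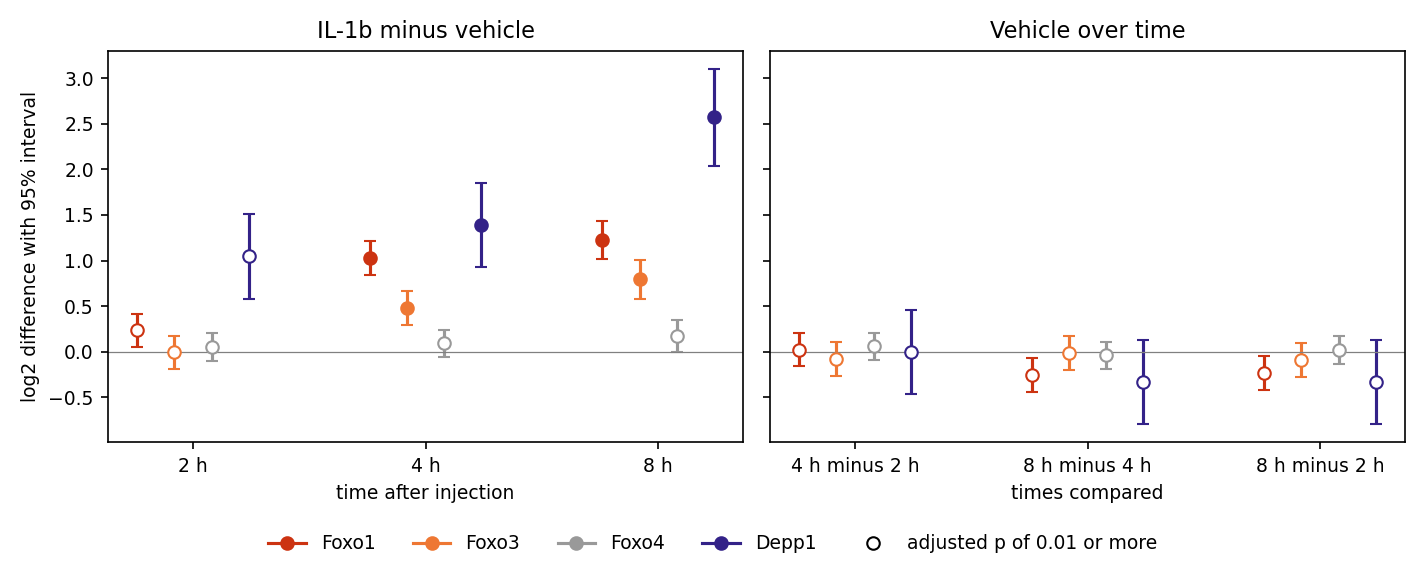
Log2 difference with its 95% interval for each of the 4 genes, for IL-1b minus vehicle by time after injection on the left and for vehicle between times on the right, with filled points where the limma adjusted p is under 0.01. Foxo1, Foxo3 and Depp1 are filled at 4 and 8 h, the intervals of Foxo4 include 0 throughout, and no vehicle step is filled.

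The responses of the 4 genes were set against each other within arrays, as the difference between a pair of genes on each array, in 6 pairs at 3 times and so 18 tests (exact two-sided permutation over arrays, adjusted over the 18). A pair difference passed at an adjusted p under 0.05, and not the 0.01 used in limma, and the smallest exact p before adjustment is 0.00794 at 2 and 4 h. At 2 h the IL-1b effect on Depp1 was larger than that on Foxo1 by 0.81 ± 0.22, than that on Foxo3 by 1.05 ± 0.20 and than that on Foxo4 by 0.99 ± 0.17 (SE, exact permutation, adjusted p = 0.0179 for each). The effects on the 3 FoxO factors did not differ past the test at 2 h, with Foxo1 above Foxo3 by 0.24 ± 0.10 (exact permutation, adjusted p = 0.0612).

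At 4 h Foxo1 responded by 0.55 ± 0.080 more than Foxo3, and Foxo3 by 0.385 ± 0.10 more than Foxo4 (exact permutation, adjusted p = 0.0179 for both). Depp1 stood above Foxo1 by 0.36 ± 0.21 at 4 h, which did not pass (exact permutation, adjusted p = 0.143). It passed without vehicle replicate 5, the array with the high Depp1 value (0.53, exact permutation, adjusted p = 0.0317). Leaving out that array necessarily widens this difference, so that fit is not separate support. At 8 h Depp1 exceeded Foxo1 by 1.35 ± 0.28, Foxo3 by 1.78 ± 0.22 and Foxo4 by 2.40 ± 0.30, and Foxo1 exceeded Foxo4 by 1.06 ± 0.12 (exact permutation, adjusted p = 0.0495 for each, at the smallest p that 3 and 5 arrays allow, 0.0357). Foxo1 and Foxo3 at 8 h differed by 0.43 ± 0.14, which did not pass (exact permutation, adjusted p = 0.0857).

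**Figure D3:**
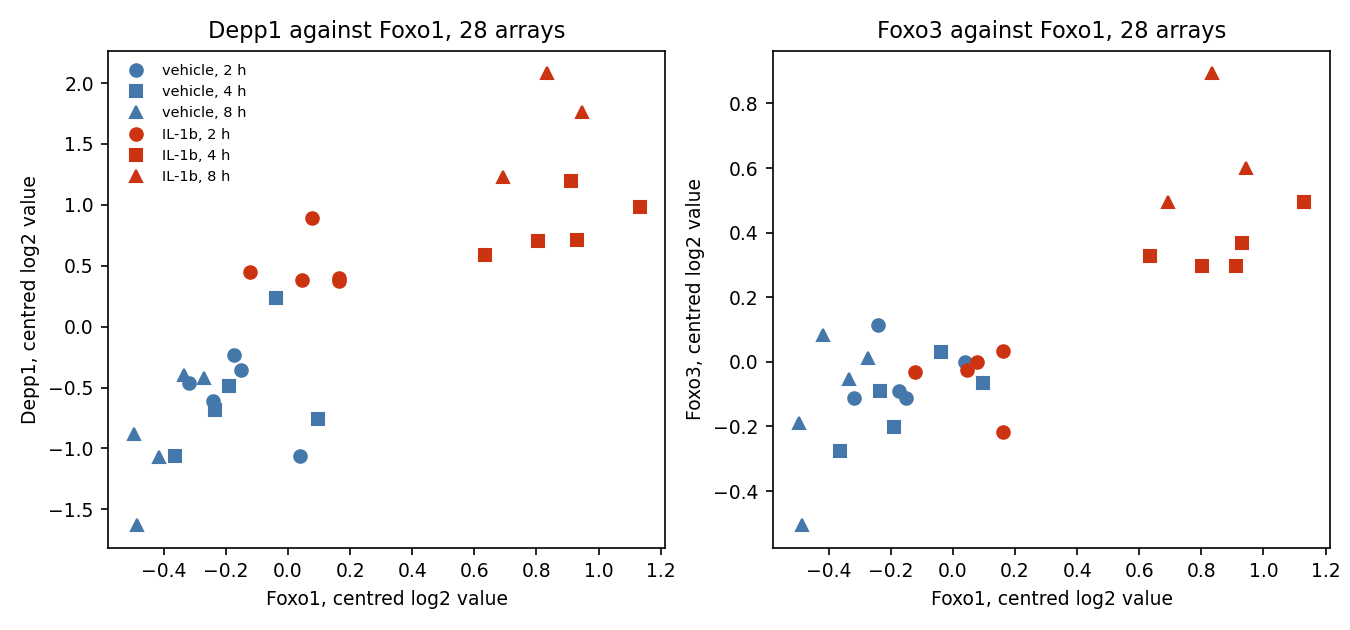
Depp1 on the left and Foxo3 on the right against Foxo1, as centred log2 values of the 28 arrays, with vehicle in blue, IL-1b in red and the time given by the point shape. The IL-1b arrays of 4 and 8 h stand apart from the rest in both panels, and the IL-1b arrays of 2 h lie above all vehicle arrays in Depp1 but among them in Foxo3.

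By the selection in the study's design text, a test over the 6 groups at a 1% false discovery rate and a change of at least 1.75-fold at any time, 122 of the 17831 probe sets (0.684%) were selected. Foxo1 (limma F-test, adjusted p = 4.67e-10) and Depp1 (adjusted p = 1.06e-07) were among them. Foxo3 passed the F-test (adjusted p = 6.1e-06) and its largest fold, 1.73, fell just short of 1.75. Foxo4 passed neither step (adjusted p = 0.498).

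Among genes that FoxO factors are known to switch on, 8 of 44 measured were higher after IL-1b at 8 h, 0 were lower and 36 did not pass. Of all probe sets, 1.02% passed as higher at 8 h and 2.09% in either direction. The median log2 difference of the 44 was 0.17 against -0.0004 over all probe sets. At 2 h 0 of the 44 passed in limma, where 0.0729% of all probe sets did, with a median of 0.0855 against -0.019. An unadjusted p under 0.05 was reached at 2 h by 9 of the 44 and by 1885 of all 17831 probe sets. At 4 h 2 were higher and 1 lower, with a median of 0.021 against 0.0033. Of all probe sets, 0.578% passed at 4 h as higher and 0.847% in either direction. The 8 targets higher at 8 h were Sesn1 and Pik3ip1, brakes on mTOR and PI3-kinase signalling, Klf15, a glucocorticoid-induced factor of amino acid breakdown, Cdkn1a and Gadd45a, which halt the cell cycle, Fbxo32, the muscle atrophy ubiquitin ligase, Nfil3, a repressor of circadian genes, and Gabarapl1, which builds autophagosomes. Fbxo32 rose by 1.21 ± 0.16 at 8 h (limma adjusted p = 2.16e-05), against 0.24 at 2 h and 0.12 at 4 h, which did not pass (adjusted p = 0.521 and 0.925). The partner ligase Trim63 is named by no probe set of 1 symbol.

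Sesn1 rose at 8 h by 1.56 ± 0.18 and Klf15 by 1.30 ± 0.16 (limma adjusted p = 3.23e-06 and 5.76e-06). Gadd45a rose by 0.87 ± 0.14, Gabarapl1 by 0.79 ± 0.13 and Pik3ip1 by 0.65 ± 0.14 (adjusted p = 0.000169, 0.000195 and 0.00487), and these 3 calls were lost after a further quantile normalization, which left 5 higher. The Pik3ip1 call was also lost without the 3 arrays of widest spread (adjusted p = 0.013) and in 5 of the 8 fits without 1 array (adjusted p up to 0.0482). Cdkn1a and Nfil3 were higher by 1.23 ± 0.16 and 1.05 ± 0.17 (adjusted p = 1.67e-05 and 0.000212), beside falls in vehicle from 2 to 8 h of -1.28 and -1.53 (adjusted p = 3.36e-06 and 7.45e-07). In the IL-1b arm both genes also fell from 2 to 8 h, by 0.66 and 0.74 (adjusted p = 0.00912 and 0.00555).

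At 4 h the FoxO targets that passed were Ddit4, an mTOR inhibitor induced by stress and glucocorticoids, by 3.14 ± 0.40 (limma adjusted p = 2.95e-05), Cdkn1a by 0.65 ± 0.14 (0.00989) and Bcl2l11, a promoter of cell death, by -0.31 ± 0.063 (0.00517). The Cdkn1a and Bcl2l11 calls at 4 h were lost in 8 and 7 of the 10 fits without 1 array, and Bcl2l11's also after a further quantile normalization. Ddit4 differed by 1.85 at 2 h, which did not pass (limma adjusted p = 0.0465), and it did not pass at 8 h either (adjusted p = 0.0743). Pdk4, which limits glucose oxidation, differed by 0.51 at 8 h and did not pass (adjusted p = 0.0206), while in vehicle it rose by 0.55 from 2 to 8 h (adjusted p = 0.00627).

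Of 41 measured regulators upstream of FoxO, 0 passed in limma at 2 h (4 had an unadjusted p under 0.05), 1 was higher at 4 h and 2 were higher at 8 h, and 0 were lower at any time, with medians of 0.060, -0.021 and -0.060. Over all 17831 probe sets, 0.0729% passed at 2 h, 0.578% as higher at 4 h and 1.02% as higher at 8 h. At 2 h 1885 of these probe sets had an unadjusted p under 0.05. Sgk1, a kinase induced by glucocorticoids that phosphorylates FoxO3, rose by 0.54 ± 0.10 at 4 h and 0.59 ± 0.12 at 8 h (limma adjusted p = 0.00303 and 0.00273). Its 4 h call was lost in 5 of the 10 fits without 1 array, and its 8 h call after a further quantile normalization, without IL-1b replicate 26 and without the 3 arrays of widest spread. Pik3r1, the regulatory subunit of PI3-kinase, rose by 1.14 ± 0.18 at 8 h (adjusted p = 0.000174). Akt1 differed by -0.0665, -0.084 and -0.11 at 2, 4 and 8 h, the glucocorticoid receptor gene Nr3c1 by 0.11, -0.16 and -0.19, and Igf1 by -0.38, -0.20 and -0.37, and none of these passed (lowest limma adjusted p = 0.47). The insulin receptor substrate Irs2 is named by no probe set of 1 symbol. Of the 33 other forkhead genes measured, 0 passed in limma at any of the 3 times (1, 0 and 3 had an unadjusted p under 0.05), and their differences at 8 h ran from -0.18 to 0.30. Of all 17831 probe sets, 1885, 1565 and 2301 had an unadjusted p under 0.05 at 2, 4 and 8 h. Foxo6, the remaining FoxO factor, differed by -0.0895, 0.050 and 0.0059 (limma adjusted p = 0.776, 0.961 and 0.996).

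**Figure D4:**
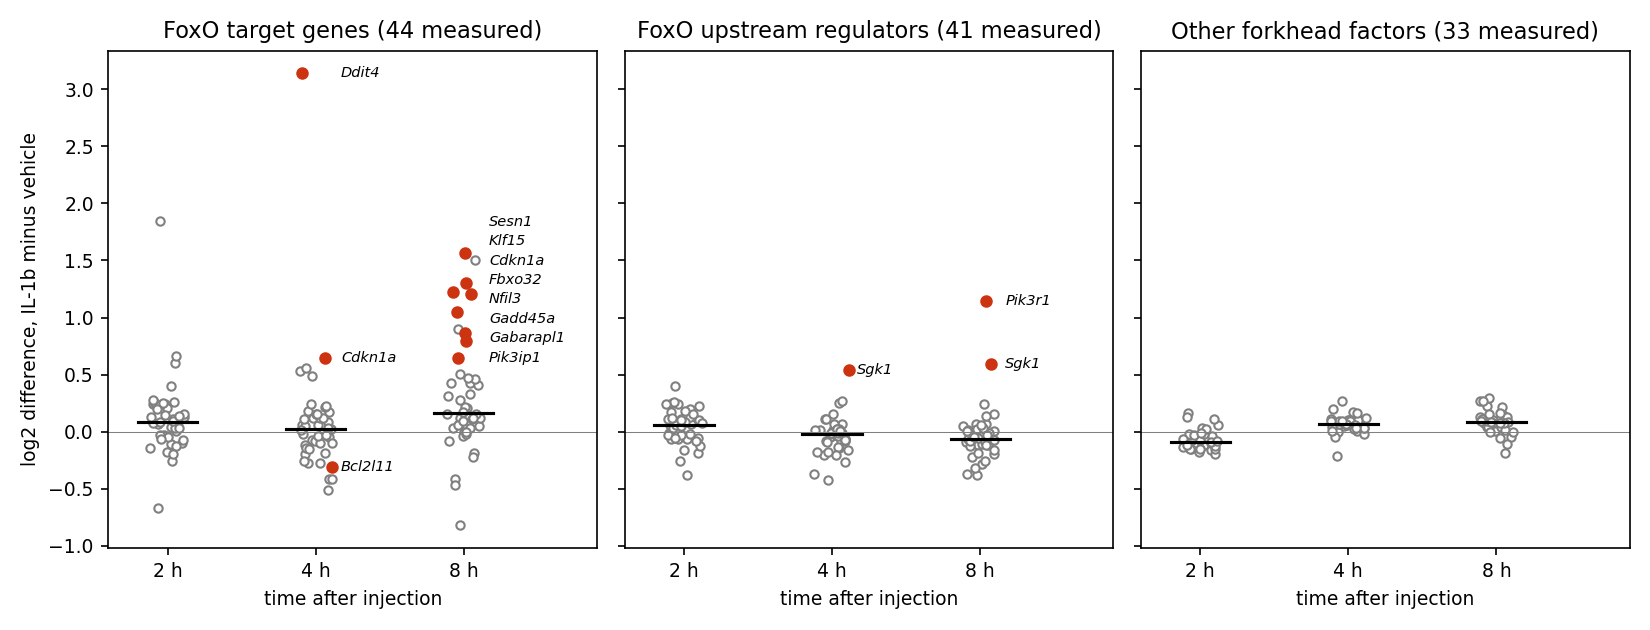
Log2 difference between IL-1b and vehicle at each time for each measured gene of 3 lists, with the list median as a line and filled points where the limma adjusted p is under 0.01. Of the FoxO target genes 3 are filled at 4 h and 8 at 8 h, of the upstream regulators 1 and 2, and of the other forkhead factors none.

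The genes whose pattern over the 28 arrays was most like a member's are given as a description, since all share the same 6 groups. Foxo1 was most like Slc7a8, an amino acid transporter (Pearson r = 0.92, Spearman rho = 0.67), the kinase Map3k6 (0.92, 0.90) and Aff1, a subunit of a transcription elongation complex (0.90, 0.70). Foxo3 was most like the zinc transporter Slc39a14 (r = 0.91, rho = 0.78), Prickle3 (0.91, 0.82) and the chromatin remodeller Chd9 (0.91, 0.83). Depp1 was most like Fkbp5, a glucocorticoid-induced co-chaperone (r = 0.92, rho = 0.92), Sesn1 (0.88, 0.89) and Glul, glutamine synthetase (0.88, 0.86). Foxo4, which did not separate the arms, was most like Mars1, a methionine tRNA synthetase (r = 0.86, rho = 0.86), Fbxo31 (0.83, 0.86) and Sptb, a membrane skeleton spectrin (0.78, 0.74).

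Single arrays also bear on the values of Depp1 and Foxo1. In IL-1b 2 h replicate 2, Selp, an endothelial adhesion gene induced by inflammation, read -0.29, within the 2 h vehicle range of -0.47 to -0.23 and far from the 2.87 to 3.01 of the other IL-1b arrays, while Depp1 (0.45) lay within the range of the other IL-1b arrays, Ddit4 (1.66, others 1.05 to 1.60) was the highest of them and Foxo1 (-0.12) the lowest. Fkbp5, the gene most like Depp1, read -0.092 in the same array. That lay within its 2 h vehicle range of -0.73 to 0.030 and below the other 2 h IL-1b arrays (0.29 to 0.40). With any 1 array left out, this one included, the 2 h difference ran from 0.20 to 0.29 for Foxo1 and from 0.92 to 1.12 for Depp1. None of these fits passed in limma (lowest adjusted p = 0.198 and 0.0396). In vehicle 4 h replicate 5, Ddit4 read 1.24 against -1.52 to -1.17 in the other vehicle arrays and Depp1 read 0.23 against -1.06 to -0.49, while Foxo1 (-0.0385) lay within the range of the others. Without that vehicle array the 4 h difference of Depp1 was 1.59 in place of 1.39.

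Markers of other cell types were read beside the 4 genes, as the mean of each list on each array. None of the 8 fibre, 8 adipocyte, 7 fibroblast, 8 macrophage or 3 Schwann cell markers measured passed in limma at any time, though at 2 h 5 fibroblast and 6 macrophage markers, and at 8 h 5 fibroblast markers, had an unadjusted p under 0.05. Of the 12 endothelial markers, Kdr was lower at 4 h (-0.94), and 4, 7 and 4 had an unadjusted p under 0.05 at 2, 4 and 8 h. Of the 7 neutrophil markers, Retnlg was higher at 2 h (1.28), and 6, 3 and 0 had an unadjusted p under 0.05. Over all 17831 probe sets, 1885, 1565 and 2301 had an unadjusted p under 0.05 at 2, 4 and 8 h. The shares of all probe sets that passed in limma were 0.0729%, 0.847% and 2.09%.

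Where Depp1 separated at 2 h, the IL-1b arrays had macrophage means of -0.36 to -0.10 and the vehicle arrays of -0.066 to 0.33. Neutrophil means at 2 h were 0.41 to 0.75 in 4 of the 5 IL-1b arrays and -0.028 in replicate 2, where Depp1 was 0.45, against -0.15 to 0.012 in vehicle. Fibroblast means at 2 h lay between -0.19 and 0.037 after IL-1b and between -0.0795 and 0.54 in vehicle, and endothelial means between -0.17 and 0.041 and between -0.013 and 0.13. At 4 h, where Foxo1, Foxo3 and Depp1 rose, the IL-1b arrays had endothelial means of -0.25 to -0.076 and the vehicle arrays of -0.087 to 0.18, while neutrophil means ran from -0.0042 to 0.21 and from -0.17 to 0.041. At 8 h macrophage means lay between 0.064 and 0.33 in the IL-1b arrays and between -0.19 and 0.061 in the vehicle arrays, fibroblast means between -0.72 and 0.14 and between 0.022 and 0.38, and endothelial means between 0.0093 and 0.0425 and between 0.0049 and 0.25. The part of these cell types in the results was not tested. The adipocyte mean was 1.31 in IL-1b 8 h replicate 14, against -0.51 and -0.39 in the other 8 h IL-1b arrays and -0.495 to 0.23 in vehicle. Without that array Depp1 at 8 h was higher by 2.54, Foxo3 by 0.82 and Foxo1 by 1.16 (limma adjusted p = 9.38e-06, 0.000119 and 7.24e-07).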

How the data were processed

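RNA of skeletal muscle was measured on 28 arrays in 6 groups, taken from the sample titles; 1 title with its replicate number and time joined was split by the pattern of the others. The authors deposited log2 values of 17831 probe sets made with RMA (background correction, normalization between arrays and summary of probes), and the submitters' processing notes name the build mm9. The log base, taken as log2, and a software version were not given in the sources used here. Each probe set was found centred on its median over the 28 arrays within 1e-06. Probe sets were named from the platform annotation: 15620 have 1 symbol, 1370 several and 841 none.

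From these values, limma 3.58.1 in R 4.3.3 fitted the 6 groups (22 residual degrees of freedom) without a filter. The fit was tested on simulated data with independent noise of equal spread on every array. Such data cannot speak to the 3 arrays of widest spread. The number of arrays limits the precision, and 2 arrays correlated at most at 0.703, with 0 pairs identical. The 7 alternatives to each limma result were a fit of the compared groups alone, a trended and robust spread estimate, quantile normalization, centring of arrays, array weights, leaving out the 3 arrays of widest spread, and only probe sets with 1 symbol; each array was also left out in turn. In vehicle the replicate number as a block was tried too. Of the gene lists, up to 6 genes past the threshold per list, time and direction were named, with Fbxo32, Klf15, Ddit4, Pdk4, Gadd45a, Nr3c1, Sgk1, Akt1, Igf1 and Foxo6 whatever their values; Gabarapl1, Pik3ip1, Kdr, Retnlg, Selp, Irs1 and the genes listed under other observations were named after their values were seen. The 4 genes, the lists and the tests were chosen with earlier results of these data known.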

Additional observations from a re-analysis of the deposited data

Results flagged for a closer look

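In groups of 4 to 10 arrays, the highest or lowest array was set against its group by Dixon's test, over 20 combinations of gene and group, and 2 arrays stood apart, where chance gives about 1 in 20. Foxo3 in IL-1b 2 h replicate 4 read -0.22, and the other IL-1b 2 h arrays read -0.032 to 0.034. Depp1 in IL-1b 2 h replicate 8 read 0.89, and the other arrays of its group read 0.37 to 0.45, all above the vehicle arrays.

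The IL-1b difference changed with time past the limma test for Foxo1, Foxo3 and 2 of the 44 measured FoxO targets. Of all probe sets, 0.0505% passed from 2 to 4 h and 0.527% from 2 to 8 h. Foxo1's grew by 0.79 from 2 to 4 h and by 0.99 from 2 to 8 h (limma adjusted p = 0.00682 and 0.000157). Its 2 to 4 h call was lost in 14 of the 20 fits without 1 array and under 3 of the 7 alternative settings. Foxo3's grew by 0.80 from 2 to 8 h (limma adjusted p = 0.00209), a call lost under 3 of the 7 settings. Klf15's grew by 1.05 and Sesn1's by 1.17 from 2 to 8 h (limma adjusted p = 0.00684 and 0.00953). These changes of Klf15 and Sesn1 were not refitted under other settings.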

How the results depend on the processing

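In none of the settings tried did a called difference of Foxo1, Foxo3, Depp1 or a named list gene change sign. With only the compared groups in the fit, Foxo3 at 8 h (0.79, adjusted p = 0.0453), Foxo1's change from 2 to 4 h (0.79, 0.0146) and Foxo3's change from 2 to 8 h (0.80, 0.0209) no longer passed in limma. That fit called 0, 98 and 37 probe sets at 2, 4 and 8 h in place of 13, 151 and 373, and 0, 19 and 0 in vehicle from 2 to 4, 2 to 8 and 4 to 8 h in place of 18, 152 and 23, where the limma counts of 0 stand beside 2434, 1863 and 1407 probe sets at an unadjusted p under 0.05. With a trended and robust spread, Foxo3 at 4 h (0.48, 0.0113) and Foxo1's change from 2 to 4 h (0.79, 0.0988) did not pass, and the counts were 7 at 2 h and 10 in vehicle from 4 to 8 h. After quantile normalization Depp1 passed at 2 h (1.09, 0.00973), the changes from 2 to 8 h of Foxo1 (0.70, 0.0176) and Foxo3 (0.64, 0.0246) did not, and the counts were 26 at 2 h, 130 at 8 h, 28 in vehicle from 2 to 4 h and 8 from 4 to 8 h. With array weights Depp1 passed at 2 h (1.00, 0.00595), as did Foxo3's change from 2 to 4 h (0.53, 0.00592), and the counts were 80, 450 and 836 at 2, 4 and 8 h and 31, 276 and 87 in vehicle. Without the 3 arrays of widest spread Foxo1's change from 2 to 4 h (0.81, 0.0103) and Foxo3's from 2 to 8 h (0.70, 0.0111) did not pass, and the counts were 8 at 2 h and 11 in vehicle from 2 to 4 h. The cause was not tested for any of these.

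With 1 array left out at a time, Foxo3 at 4 h ran from 0.44 to 0.51, Foxo1's change from 2 to 4 h from 0.73 to 0.86 and Foxo3's change from 2 to 8 h from 0.69 to 0.89. The counts ran from 2 (without IL-1b replicate 10) to 40 (without IL-1b replicate 2) at 2 h, from 93 (without vehicle replicate 17) to 166 at 4 h and from 254 to 386 at 8 h, and in vehicle from 5 (without 4 h replicate 1) to 22 for 2 to 4 h, from 79 (without 8 h replicate 21) to 169 for 2 to 8 h and from 6 (without 4 h replicate 3) to 26 for 4 to 8 h. The fits of named list genes without the 3 wide arrays, after quantile normalization or without 1 array, and the list counts without 1 array, were added after seeing the data. FoxO targets higher at 8 h numbered 5 and lower at 4 h 0 after quantile normalization, and the upstream regulators higher at 8 h numbered 1 there and 1 without the 3 wide arrays. Of 186 alternatives to the differences between pairs of genes, 45 no longer passed, all at 8 h, where fewer arrays cannot reach an adjusted p under 0.05, and 2 newly passed.

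Replicate numbers were not used as pairs in the main fit, and vehicle and IL-1b arrays of 1 time share no number. Vehicle arrays of the same number at different times had deviations from their group means correlated from -0.434 to 0.678. For arrays of other numbers the range was -0.681 to 0.576. With only 7 same-number pairs, this cannot settle whether the numbers mark a pairing. With the replicate block in the vehicle arrays, none of the 4 genes passed (Foxo1 from 2 to 8 h -0.27, limma adjusted p = 0.922). The main fit had no vehicle call of these genes to lose, so this cannot show whether a pairing matters. The block fit called 0, 5 and 0 probe sets, with 1518 and 860 at an unadjusted p under 0.05 beside the limma counts of 0.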

Other observations

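Within the IL-1b arm, 12 of the 44 measured FoxO targets rose from 2 to 8 h and 4 fell, where 3.95% of all probe sets passed in either direction. Fbxo32 rose by 1.12 ± 0.16 (SE, limma adjusted p = 3.43e-05), Klf15 by 1.04 ± 0.16 (6.03e-05) and Pdk4 by 0.93 ± 0.13 (2.07e-05). The autophagy genes Gabarapl1 and Ulk1, an autophagy-starting kinase, rose by 0.95 and 0.51, and Cited2, a transcription co-regulator, by 0.86. The targets that fell were Bcl6, a transcription repressor, by 1.25, S1pr1, a sphingosine receptor of endothelium and lymphocytes, by 0.83, Nfil3 by 0.74 and Cdkn1a by 0.66. In vehicle over the same times 1 target, Pdk4, rose and 2, Cdkn1a and Nfil3, fell, where 0.852% of all probe sets passed.

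In the IL-1b arm from 2 to 8 h, 2 of the 41 measured upstream regulators rose and 2 fell. Of all probe sets, 3.95% passed there in either direction. Pik3r1 rose by 0.86 and the deacetylase Sirt1, which acts on FoxO proteins, by 0.46. The insulin receptor substrate Irs1 fell by 0.85 and the kinase Nlk by 0.43. Irs1 also fell in vehicle, by 0.72 (limma adjusted p = 0.00817), as 1 of the 41, where 0.852% of all probe sets passed. Of the 33 other forkhead genes measured, Foxk1 alone passed in the IL-1b arm from 2 to 8 h, higher by 0.47, beside the 3.95% of all probe sets.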
